A study of Mus musculus with 8 samples.

Results

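Translation factor genes are described here by the sites of retinoid X receptor (RXR) binding around them in hearts of newborn mice. The members were all 71 protein-coding genes, of 21887 in the RefSeq gene table, whose symbols begin with Eef1, Eef2 or Eif and a digit, together with the RXR peaks whose summit lay within 10 kb of either end of such a gene. The rule uses names and positions and no measured level, but these genes were picked for description with earlier results of these data known. The names cover more than translation factors in the strict sense: the list holds the kinases and inhibitors that act on these factors, 6 genes of eEF1A methyltransferases (one of them a read-through transcript, Eef1akmt4-ece2, with the same start as Eef1akmt4), and Eif4a3, a core protein of the exon junction complex.

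RXR chromatin immunoprecipitation and sequencing (ChIP-seq) was performed on whole hearts at postnatal day 0, after sequential fixation of each heart with disuccinimidyl glutarate (DSG) and formaldehyde (FA). The wild-type (WT) group and the edKO group, in which Rxra and Rxrb were deleted in cardiomyocytes, had 2 hearts each, numbered 3 and 4, and each heart was a biological replicate with its own input library. The promoter that drove the deletion is not named in the sources used here, and other cell types of the edKO hearts kept both genes. The authors called peaks separately for every heart. WT replicate 3 gave 19129 peaks and WT replicate 4 gave 4697, while the edKO hearts gave 8 (replicate 3) and 127 (replicate 4). For the WT hearts (3, then 4) the lowest local background recovered from the lists was 2.48 and 2.32 fragments, and for the edKO hearts it was 3.11 and 2.96. Without expression values in the files, neither the deletion nor the tissue could be checked against marker genes. In whole hearts, fewer cells that bind RXR at a site and less binding per cell cannot be told apart.

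RXR is a nuclear receptor that binds DNA mainly as a partner of other nuclear receptors, such as the peroxisome proliferator-activated, liver X, thyroid hormone and retinoic acid receptors, at direct repeats of a short half-site. Translation starts when eIF4F, the complex of the cap-binding protein eIF4E, the scaffold eIF4G and the helicase eIF4A, recruits a small ribosomal subunit that carries eIF3 and the initiator tRNA bound to eIF2. eEF1A then brings each aminoacyl-tRNA to the ribosome and eEF2 moves the ribosome along the mRNA. In the newborn heart, protein synthesis supports the growth of cardiomyocytes after birth.

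A region shared by the WT hearts, meaning overlapping peaks of both, lay within 10 kb of 13 of the 71 genes. For 5 of these 13 genes a WT summit of at least 1 heart, not always that of the shared region, fell within the 250 bases before an annotated transcription start. Those bases are printed because they show the DNA under or beside that summit. They come from RefSeq (GRCm38.p6, the build of the peaks) and run 5′ to 3′ on the strand of the gene. Capitals mark matches, on either strand, to the RXR half-site AGGTCA or to the related form GGGTCA, the form AGTTCA or the form GGTTCA. The windows are chr16:20672477-20672726 (plus strand) for Eif4g1, chr10:81176381-81176630 (plus strand) for Eef2, chr12:78861822-78862071 (plus strand) for Eif2s1, chr15:77970825-77971074 (minus strand) for Eif3d and chr15:102073523-102073772 (plus strand) for Eif4b.
Eif4g1: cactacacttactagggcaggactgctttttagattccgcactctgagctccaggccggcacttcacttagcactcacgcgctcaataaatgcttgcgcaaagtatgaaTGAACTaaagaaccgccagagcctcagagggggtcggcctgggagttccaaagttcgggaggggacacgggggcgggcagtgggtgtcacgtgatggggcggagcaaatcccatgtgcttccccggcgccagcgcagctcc
Eef2: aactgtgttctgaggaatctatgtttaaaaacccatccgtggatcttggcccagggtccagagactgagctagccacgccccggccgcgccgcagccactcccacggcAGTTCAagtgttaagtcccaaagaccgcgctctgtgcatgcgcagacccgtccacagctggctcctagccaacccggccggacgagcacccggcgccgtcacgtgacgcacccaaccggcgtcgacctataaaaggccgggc
Eif2s1: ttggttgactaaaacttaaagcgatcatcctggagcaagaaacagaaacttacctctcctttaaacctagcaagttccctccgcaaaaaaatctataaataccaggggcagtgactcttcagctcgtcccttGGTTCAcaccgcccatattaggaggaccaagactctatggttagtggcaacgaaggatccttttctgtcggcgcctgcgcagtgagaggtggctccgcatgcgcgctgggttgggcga
Eif3d: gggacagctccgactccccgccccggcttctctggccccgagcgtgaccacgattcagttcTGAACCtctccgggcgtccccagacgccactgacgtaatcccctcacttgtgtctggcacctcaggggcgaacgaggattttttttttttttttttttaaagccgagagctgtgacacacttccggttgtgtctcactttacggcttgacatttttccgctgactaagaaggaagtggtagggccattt
Eif4b: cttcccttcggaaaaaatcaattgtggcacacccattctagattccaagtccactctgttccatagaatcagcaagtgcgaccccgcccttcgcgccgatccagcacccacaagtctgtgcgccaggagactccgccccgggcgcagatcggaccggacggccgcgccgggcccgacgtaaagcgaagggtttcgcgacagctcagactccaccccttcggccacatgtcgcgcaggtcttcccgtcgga

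The Eif4g1 window held 1 half-site, AGTTCA on the opposite strand, at position -141 counted from the start. The summits of that promoter lay 71 and 81 bases before the start in WT replicates 3 and 4. The Eef2 window had AGTTCA at position -142, and a weaker Eef2 peak of WT replicate 3 had its summit 198 bases before it. Eif2s1 held GGTTCA at position -118 and Eif3d held GGTTCA on the opposite strand at position -189. The Eif2s1 window held the summit of WT replicate 3 only, and the Eif3d window that of WT replicate 4 only. Eif4b held none of the 4 half-sites. The summit in its window, with 12 fragments, belonged to a peak of WT replicate 3 outside the shared regions. The shared region nearest the Eif4b start had its summits 415 and 360 bases after the start in WT replicates 3 and 4. Of the 71 genes 55 had an entry in the promoter table. At least 1 half-site was found in 20 of their 70 promoter windows (28.6%). Among all protein-coding genes it was 36.5% of 21263 windows of the same length. The window that Eef1akmt4 and Eef1akmt4-ece2 share was counted for each of them. Among the 13 genes with a shared region, 11 had an entry and 6 of those 11 windows held a half-site. Direct repeats of 2 half-sites in the same orientation, with 0 to 5 bases between them, were searched as well, also on both strands. No member window held one, against 0.499% of all windows. These matches describe letters in a window and not bound sites, and the strongest region, 1466 bp before Eef2, lay outside it.

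The first comparison asked how much of the RXR signal at these genes was present when cardiomyocytes lacked Rxra and Rxrb. Peaks at translation factor genes were numerous in WT hearts and nearly absent in edKO hearts: 77 and 19 peaks for WT replicates 3 and 4, and 0 and 1 for edKO replicates 3 and 4. These peaks lay at 44, 13, 0 and 1 of the 71 genes in the same order. Of all protein-coding genes 0.0548% had a peak of edKO replicate 3 and 0.58% a peak of edKO replicate 4. Both WT hearts thus lay above both edKO hearts, but the WT hearts themselves differed widely. The mean was 48.0 ± 41.0 peaks (SD, n = 2) in WT and 0.5 ± 0.707 (SD, n = 2) in edKO, and the exact two-sided permutation test over hearts gave p = 0.333, the smallest that 2 hearts against 2 allow. The difference of 47.5 peaks was 18.5 without WT replicate 3 and 76.5 without WT replicate 4.

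The share of each list that fell at translation factor genes was similar in both WT hearts. It was 0.403% of the peaks of WT replicate 3 (95% Clopper-Pearson interval 0.318 to 0.503%) and 0.404% of those of WT replicate 4 (0.244 to 0.631%). The single peak among the 127 of edKO replicate 4 was a share of 0.787%, with an interval of 0.0199 to 4.31% that includes the WT shares. None of the 8 peaks of edKO replicate 3 lay at these genes, with an interval of up to 36.9%. Lists this short could not have shown a share below that of the WT hearts.

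The 13 genes with a shared region were Eef2, Eif4g1, Eif3l, Eif5, Eif4b, Eif2a, Eif4ebp1, Eif2ak1, Eif4e1b, Eif4a1, Eif2s1, Eif2b4 and Eif3d. They made up 18.3% of the members, against 15.2% of all protein-coding genes, so a shared region was about as common at translation factor genes as at genes in general. In WT replicate 4 alone the same share of members, 18.3%, had a peak, against 15.8% of all genes. WT replicate 3 differed from this: 62.0% of the members had a peak there (44 genes), against 42.4% of all genes. With the summit within 1 kb of a gene end, 52.1% of the members (37 genes) had a peak of WT replicate 3 against 27.1% of all genes, 12.7% (9 genes) had a shared region against 8.38%, and 12.7% had a peak of WT replicate 4 against 8.77%. With only the nearest gene of each peak counted, 50.7% (36 genes) had a peak of WT replicate 3 against 32.3%, and 12.7% had one of WT replicate 4 against 11.0%. Genes are not replicates, the members were picked with earlier results known and the other genes were not matched on expression, so these shares were not tested. Leaving out WT replicate 4 raised the count from 13 to 44, since all peaks of WT replicate 3 then stand in for shared regions.

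**Figure D1:**
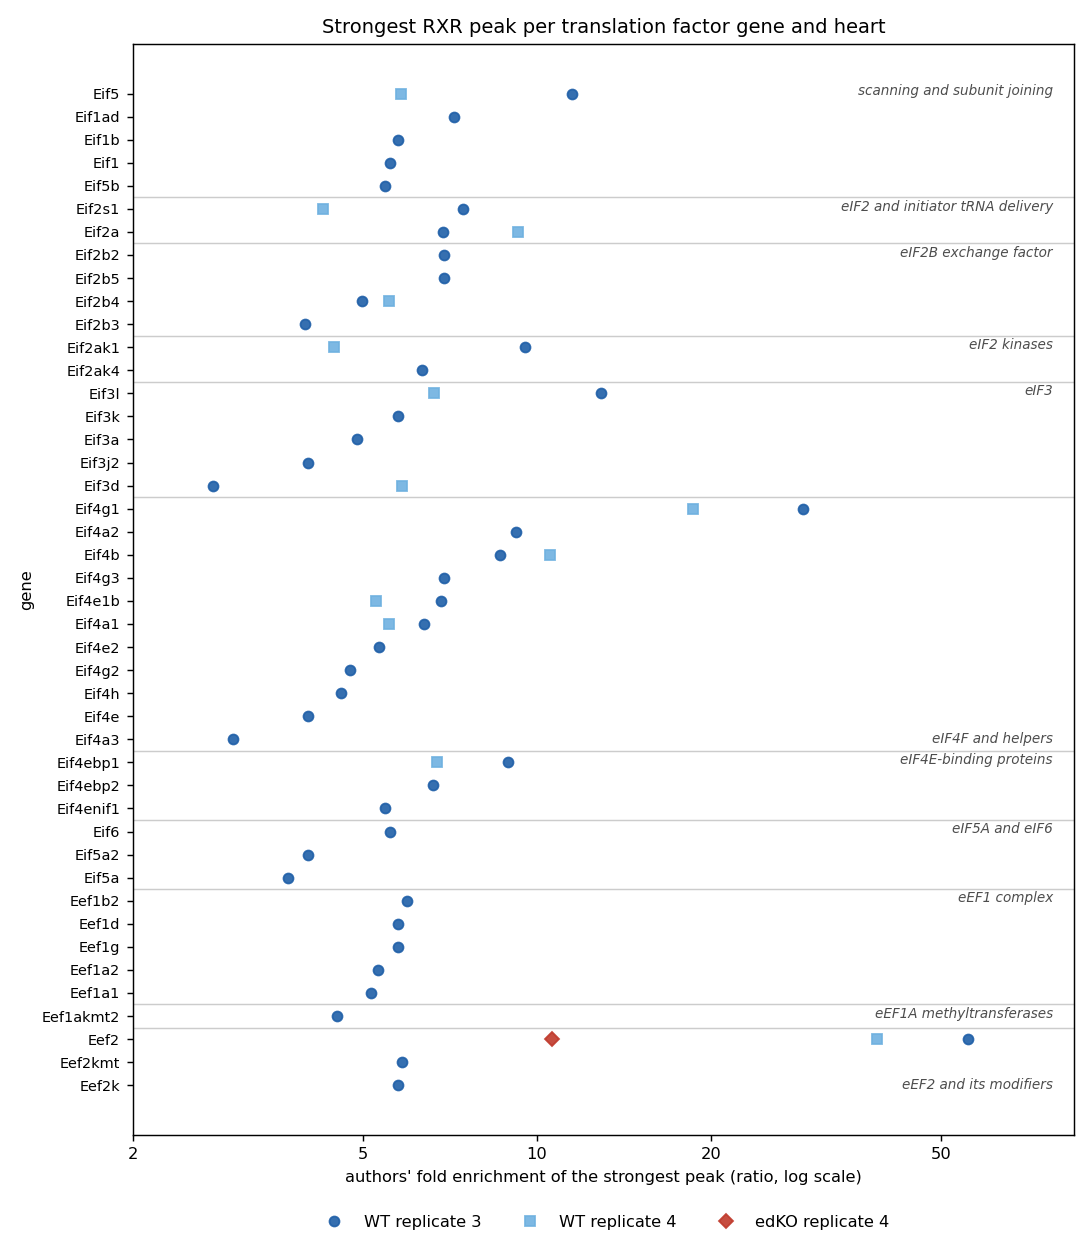
Authors' fold enrichment (ratio, log axis) of the strongest peak within 10 kb of each of the 44 translation factor genes with a peak, by role, with 1 point per heart. edKO replicate 3 had no peak at any of them. Eef2 and Eif4g1 stand apart in both WT hearts, and Eef2 is the only gene with a point from an edKO heart.

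Elongation was where the strongest region lay. Eef2 encodes the translocase that moves the ribosome by a codon, and its region on chromosome 10 from 81174640 to 81175481 (mm10) had the summit 1466 bp before the transcription start, outside the gene. The fold enrichment is the authors' ratio of the fragments at the summit to the local background, solved here with a pseudocount of 1 on both. It was 55.7 in WT replicate 3 (193 fragments, 95% counting interval of the fold 48.1 to 64.1). In WT replicate 4 it was 38.7 (135 fragments, 32.5 to 45.7). The region ranked 7 of 4342 shared regions by mean fold enrichment. It was the only region at a translation factor gene with an edKO peak, which had a fold enrichment of 10.6 in edKO replicate 4 (41 fragments, 7.69 to 14.3) and ranked 12 of the 127 peaks of that heart. The counting intervals of the 3 hearts did not overlap, but they leave out the variation between hearts and are no test of genotype. The summits lay within 3 bp of each other, at 81175165, 81175163 and 81175162. edKO replicate 3 had no peak there, in a list whose lowest fold enrichment was 3.97 over any background and 6.04 at its lowest background. Whether that heart held a signal too weak to be called was not tested. Of all shared regions 125 had a peak in edKO replicate 4 and 8 in edKO replicate 3.

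Eef2 had 3 further peaks, all of WT replicate 3. The nearest to the gene had its summit 198 bp before the start with a fold enrichment of 9.54 and 35 fragments, in a peak 662 bp wide that ran across the start. Another lay 3120 bp before the start (4.51), and the last lay 9813 bp beyond the other end of the gene, nearest to the kinase gene Dapk3 (3.38). The strong Eef2 region also had Dapk3 and Pias4 within 10 kb, and Eef2 was the nearest gene. The enzymes that modify eEF2 had peaks in WT replicate 3 only. Eef2k, the kinase that inhibits eEF2 by phosphorylation, reached 5.74, 127 bp inside the gene and 62 bp before an annotated start. Eef2kmt, the lysine methyltransferase of eEF2, reached 5.83, 219 bp inside.

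The 6 genes grouped by name as the eEF1 complex had no shared region. Of these genes 5 had a peak of WT replicate 3, as did 62.0% of the members and 42.4% of all genes. The strongest peaks reached 5.96 and 5.74 at Eef1b2 and Eef1d, which encode exchange factor subunits. Eef1g, which encodes a structural subunit, reached 5.74. The genes of both eEF1A forms followed: Eef1a2, the form of adult heart, muscle and neurons (5.30), and Eef1a1, the widely expressed form (5.17). These strongest peaks lay within a narrow range of fold enrichment, but not all at gene ends: that of Eef1g lay 9818 bp away, nearest to Ahnak, and the one next to Eef1g reached 3.06. Eef1b2 had the most fragments of these at a summit, 38, over a local background of 5.55 fragments. Eef1e1, placed in this group by its name only, encodes a scaffold protein of the aminoacyl-tRNA synthetase complex and had no peak. Of the 6 eEF1A methyltransferase genes only Eef1akmt2 had a peak, in WT replicate 3 (4.51, 628 bp inside the gene). That summit lay 24 bp before an annotated transcription start.

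**Figure D2:**
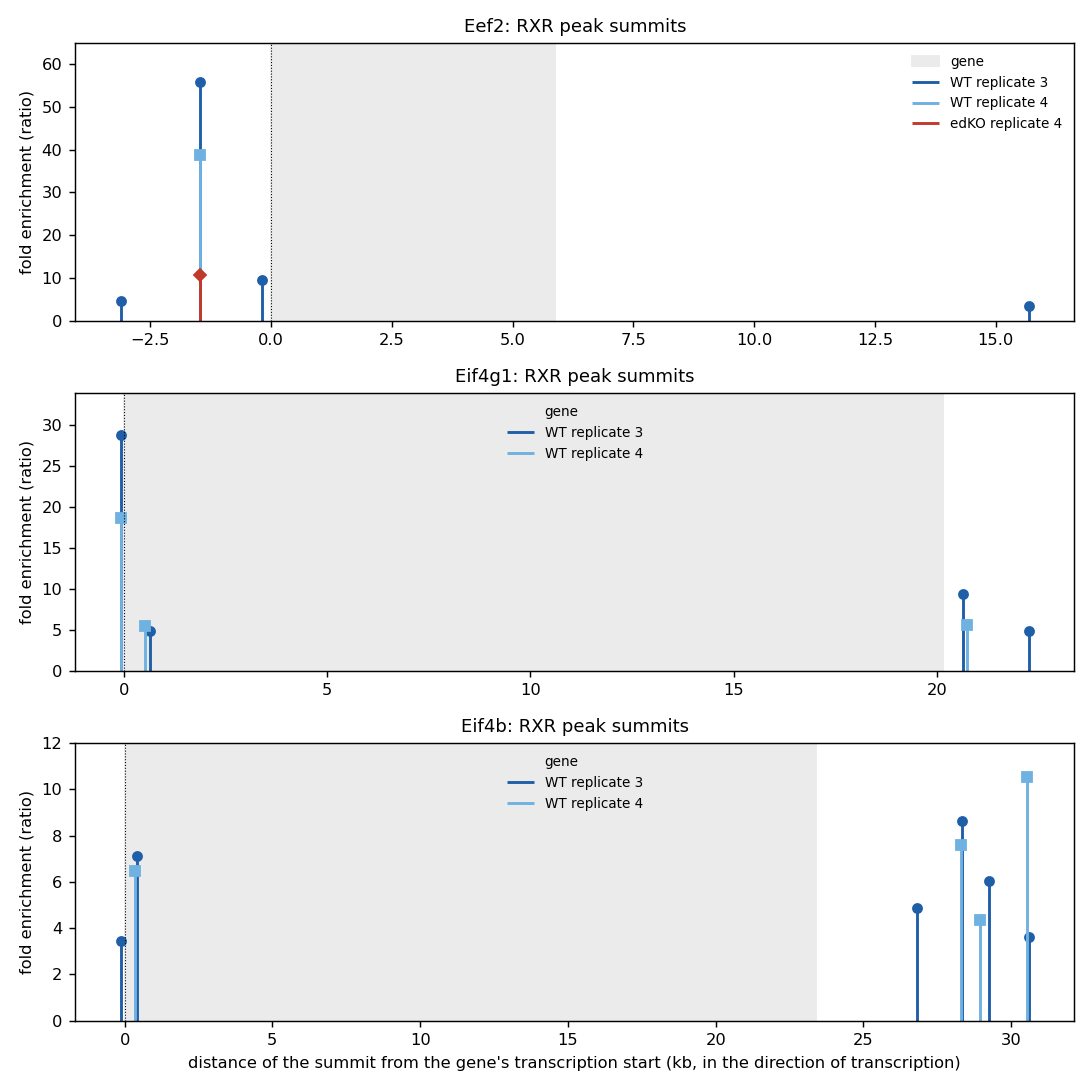
RXR peak summits at Eef2, Eif4g1 and Eif4b by distance from the transcription start (kb, in the direction of transcription), with the height showing the authors' fold enrichment (ratio) and the grey band the gene. The strong Eef2 summits of 3 hearts coincide 1466 to 1469 bp before the start, those of Eif4g1 lie just before its start, and most summits at Eif4b lie beyond its far end.

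Initiation through the cap held the next strongest region. Eif4g1 encodes the main eIF4G scaffold, and its region on chromosome 16 from 20672183 to 20672907 had fold enrichments of 28.9 in WT replicate 3 (108 fragments, 23.7 to 34.8) and 18.6 in WT replicate 4 (76 fragments, 14.7 to 23.2), with no edKO peak. It ranked 119 of the 4342 shared regions, and the summit lay 71 bp before the start, in the first of the printed windows. The proteasome gene Psmd2 was also within 10 kb. A weaker shared region lay inside Eif4g1, 643 bp after the start (4.88 and 5.41), and one more lay 476 bp beyond the other end, nearest to Fam131a (9.35 and 5.55). Eif2b5 and Eef1akmt4 lie on the same part of chromosome 16, and no shared region reached either.

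The other genes grouped with eIF4F and its helpers that had shared regions had lower fold enrichments. Eif4b, whose protein stimulates the helicase eIF4A, had 4 shared regions, of which 1 lay inside the gene, 415 bp after the start (7.12 and 6.45 in WT replicates 3 and 4, 39 and 27 fragments). The other 3 lay 4924 to 7203 bp beyond its end and were nearest to the focal adhesion gene Tns2. Their fold enrichments were 8.61 and 7.59, 6.03 and 4.36, and 3.61 and 10.5 in WT replicates 3 and 4, and the last was the one of the 18 regions that differed most in favour of WT replicate 4. At that region the local background was 6.47 fragments in WT replicate 3 and 2.40 in WT replicate 4, under 26 and 36 fragments at the summit. Eif4e1b, a germline form of the cap-binding protein, had a region 897 bp outside the gene and nearest to Tspan17 (6.82 and 5.26). Eif4a1, which encodes the main form of the helicase, had a region 4253 bp outside, nearest to Mpdu1 (6.36 and 5.55), while its own start had only peaks of WT replicate 3 (5.74 at 395 bp inside).

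In WT replicate 3 alone, 7 more genes of the group named eIF4F and helpers had a peak. The group follows gene symbols and not membership of the complex. The strongest was at Eif4a2, the second form of the helicase, 123 bp before the start, with a fold enrichment of 9.19 and 31 fragments. The others were Eif4g3 (6.89), Eif4e2 (5.32), Eif4g2 (4.74), Eif4h (4.59), the cap-binding protein gene Eif4e itself (4.02) and Eif4a3 (2.98). Of the 13 genes of this group 11 had a peak of WT replicate 3, as did 62.0% of the members and 42.4% of all genes. Only Eif4e3 and Eif4a3l1 had no peak. Among the inhibitors of eIF4E, Eif4ebp1, whose product is released from eIF4E when mTOR phosphorylates it, had a shared region at the gene end on chromosome 8 from 27260150 to 27261597 (8.90 and 6.71, 30 and 22 fragments). Eif4ebp2 (6.60, 1951 bp outside the gene and nearest to Nodal) and Eif4enif1 (5.45, nearest to Gm51877) had peaks of WT replicate 3 only. Eif4ebp3 had none.

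eIF2, its exchange factor and its kinases control how much initiator tRNA reaches the ribosome. Eif2s1, which encodes the subunit of eIF2 that stress kinases phosphorylate, had a shared region 245 bp before its start on chromosome 12 from 78861484 to 78862015 (7.45 and 4.26, 34 and 21 fragments). The gene nearest to that summit was the proton pump gene Atp6v1d. Eif2a, a separate factor that can also deliver initiator tRNA, had a region 192 bp after its start on chromosome 3 from 58525732 to 58526203. It was one of the 5 regions with a higher fold enrichment in WT replicate 4 (9.26, 43 fragments) than in WT replicate 3 (6.87, 63 fragments). Here too the local background was higher in WT replicate 3, at 8.32 fragments against 3.60, so the heart with more fragments at the summit had the lower ratio. The eIF2 genes Eif2s2, Eif2s3x and Eif2s3y and the factor gene Eif2d had no peak, and no list had a peak on chromosome Y, where Eif2s3y lies.

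Of the 5 eIF2B genes, which encode the factor that reloads eIF2 with GTP, Eif2b4 had a shared region 26 bp inside its start (4.98 and 5.55). Eif2b2 (6.89), Eif2b5 (6.89, nearest to Dvl3) and Eif2b3 (3.83, at 51 bp inside the gene) had peaks of WT replicate 3 only, and Eif2b1 had none. Of the 4 eIF2 kinases, Eif2ak1, the heme-regulated kinase, had a shared region 6993 bp beyond its end, nearest to Aimp2 (9.54 and 4.45). Eif2ak4, the kinase activated by amino acid shortage, had a peak of WT replicate 3 near Srp14 (6.31) and a weaker one at its start (3.86). Eif2ak2, activated by double-stranded RNA, and Eif2ak3, the kinase of the endoplasmic reticulum, had no peak.

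In eIF3, the largest initiation factor, 5 of 14 genes had a peak of WT replicate 3, where 42.4% of all genes had one. The 9 without any peak were Eif3b, Eif3c, Eif3e, Eif3f, Eif3g, Eif3h, Eif3i, Eif3j1 and Eif3m. Eif3l had a shared region 3338 bp beyond its end on chromosome 15 from 79097455 to 79097949 (12.9 and 6.63, 44 and 25 fragments), the strongest of the 18 after Eef2 and Eif4g1. Eif3d had the weakest of all, 253 bp before its start (2.75 and 5.84, 17 and 19 fragments). The counting intervals of Eif3d overlapped between hearts, at 1.67 to 4.31 and 3.64 to 8.95. Eif3k (5.74, near Actn4), Eif3a (4.88) and Eif3j2 (4.02) had peaks of WT replicate 3 only. Whether eIF3 genes differ from other members was not tested.

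**Figure D3:**
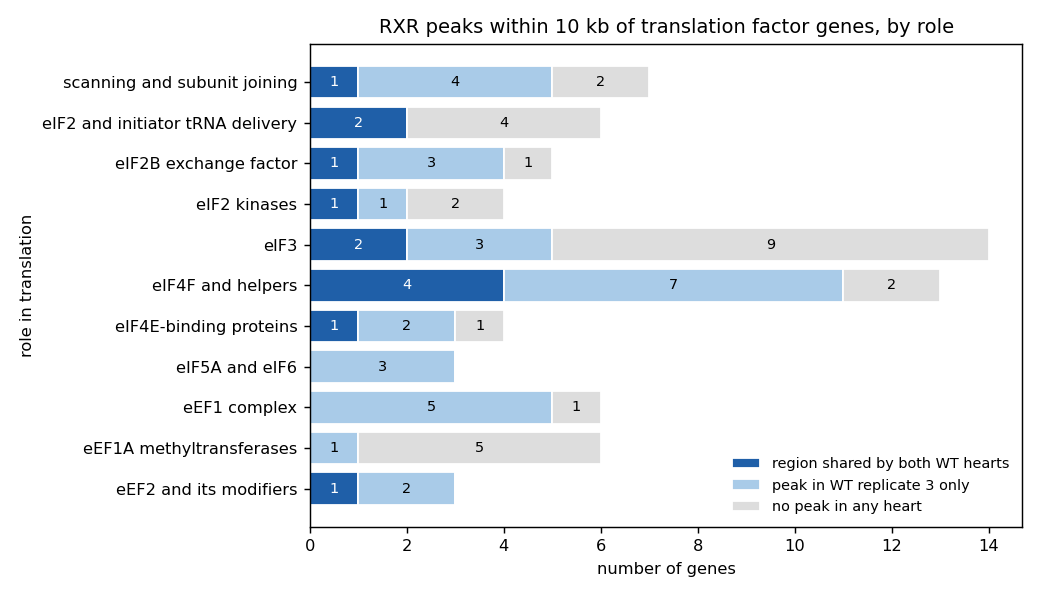
Number of translation factor genes with a region shared by the WT hearts, with a peak in WT replicate 3 only and with no peak in any heart, by role. Shared regions are spread over 8 of the 11 roles. Genes without any peak are 9 of 14 for eIF3, 4 of 6 for eIF2 and initiator tRNA delivery and 5 of 6 for the eEF1A methyltransferases. They are 2 of 13 for eIF4F and helpers, 0 of 3 for eIF5A and eIF6 and 27 of all 71 members (38.0%). Of all protein-coding genes 42.4% had a peak of WT replicate 3, and differences between roles were not tested.

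Among the factors of scanning and subunit joining, Eif5, which triggers GTP hydrolysis by eIF2 at the start codon, had a shared region 721 bp inside the gene on chromosome 12 from 111538483 to 111538991 (11.5 and 5.81, 39 and 35 fragments). The fragments at its summit were close in both hearts, while the local background was 2.48 in WT replicate 3 and 5.0 in WT replicate 4. Eif1ad (7.18), Eif1b (5.74), Eif1 (5.57) and Eif5b (5.45) had peaks of WT replicate 3 only, with the summit of the strongest peak of each 24 to 292 bp from a gene end, and Eif1a and Eif1ax had none. Eif5a, Eif5a2 and Eif6 also had peaks of WT replicate 3 only, at 3.71, 4.02 and 5.57. The Eif6 peak of 5.57 lay 790 bp outside the gene, nearest to BC029722, and the peak inside Eif6 reached 3.73.

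The 18 shared regions together showed a steep order with 2 strong members and a long low tail. Their median mean fold enrichment was 7.04, against 7.81 for all 4342 shared regions, and 6 of the 18 lay above that overall median. Taking the strongest region of each gene, the median was 7.81 for the 13 members and 7.97 for all genes with a shared region. After Eef2 at rank 7 and Eif4g1 at rank 119, the next region, at Eif3l, ranked 1378 of 4342. Fold enrichment was higher in WT replicate 3 at 13 of the 18 regions, against 82.7% of all shared regions. The median ratio of WT replicate 3 to WT replicate 4 was 1.31 for the 18 and 1.49 for all. At the 18 regions the summits of both hearts lay a median of 50.5 bp apart, and at most 312 bp. Over all shared regions the median was 36.0 bp.

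**Figure D4:**
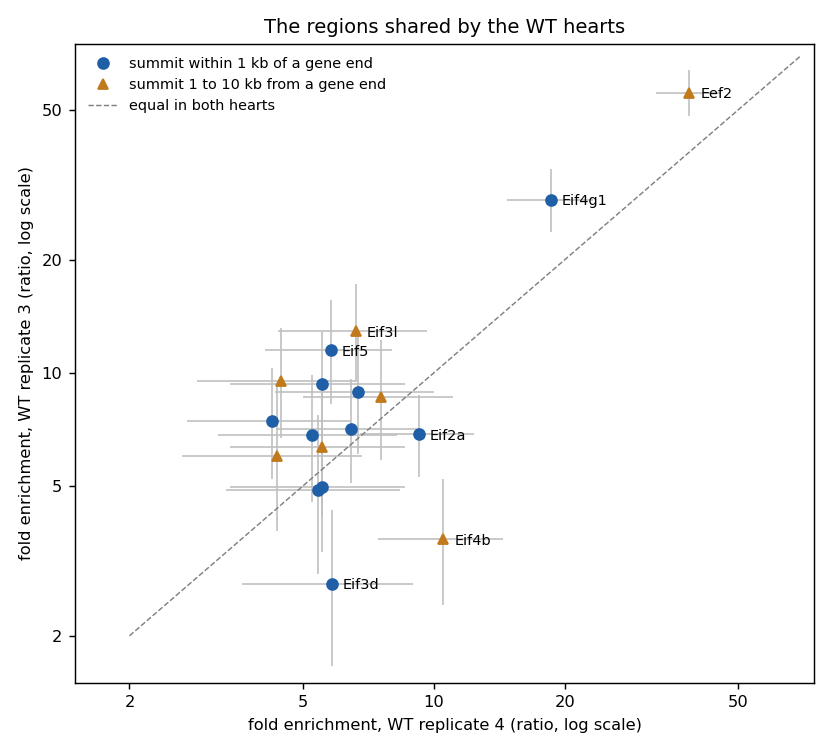
Fold enrichment (ratio, log axes) of the 18 regions shared by the WT hearts, with bars for 95% counting intervals of the fragments at the summit over a fixed background. Eef2 and Eif4g1 lie far from the other 16, most of which have intervals that overlap between hearts, and labels name the regions away from the main group.

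The positions of the 18 regions were described by the distance of the summit to gene ends. The summit lay within 1 kb of an end of the member gene at 11 of the 18, or 61.1%. Of all 2598 shared regions near a protein-coding gene, 61.7% lay within 1 kb of an end of any such gene. These shares are not like for like, since the end of a neighbouring gene counts only in the second. The member itself was the nearest gene for 10 of the 18 regions, and a neighbour was nearer at the other 8. With only the nearest gene counted, 9 members remained in place of 13 (12.7%, against 10.4% of all genes), without Eif2s1, Eif2ak1, Eif4e1b and Eif4a1. Which gene a region acts on was not measured.

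The 31 members with a peak of WT replicate 3 only had strongest fold enrichments between 2.98 and 9.19, with a median of 5.57 and 13 to 38 fragments at the summit. They were 43.7% of the members, and 26.9% of all genes had a peak of WT replicate 3 and none of WT replicate 4. The 5 strongest were Eif4a2, Eif1ad, Eif2b2, Eif2b5 and Eif4g3. Of the 31 strongest peaks 23 had the summit within 1 kb of a gene end and 22 were nearest to the member. For 29 of them the fold enrichment was above 3.80, the lowest that WT replicate 4 had at its lowest background. Fold enrichments of the 2 hearts are not on 1 scale: over all shared regions the median ratio of WT replicate 3 to WT replicate 4 was 1.49. Whether WT replicate 4 could have called these sites was thus not tested. Of all 77 member peaks of WT replicate 3, 49 (63.6%) lay within 1 kb of an end of the member. Of the 10384 peaks of that heart near a gene, 57.5% lay within 1 kb of an end of any gene, which is a wider count. Among the member peaks with an annotated start, 38 of 62 lay within 1 kb of it, 21 before and 17 after, and 24 lay farther away.

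The other genes of translation were counted from 8 lists of 75 genes, of which 74 matched the gene table. A shared region lay at 28 of the 74, or 37.8%, and a peak of WT replicate 3 at 54, or 73.0%, against 15.2% and 42.4% of all genes. The lists were written with earlier results of these data known and were not matched on expression, so the shares were not tested. Poly(A)-binding proteins and their partners had a shared region at 5 of 8 genes, led by Pabpc1, which encodes the main poly(A)-binding protein (32.1 and 13.1 in WT replicates 3 and 4, with a peak of 7.20 in edKO replicate 4), then Pan2 (15.8 and 6.78) and Paip1 (9.01 and 8.17). Signalling to translation had 7 of 16, led by Mknk2, a kinase of eIF4E (18 and 14.3), Akt1s1, an inhibitor of mTOR complex 1 (16.6 and 8.0, nearest to Tbc1d17), and Mtor itself (12.2 and 3.68).

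Of the genes downstream of eIF2 phosphorylation 4 of 9 had a shared region, led by the stress transcription factor genes Atf5 (30.8 and 14.5, nearest to Nup62) and Ddit3 (18.3 and 19.8, nearest to Mbd6) and the phosphatase subunit gene Ppp1r15b (14.7 and 7.98). Enzymes of diphthamide synthesis, the modification of eEF2, and of hypusine synthesis, the modification of eIF5A, had a region at 5 of 9 genes. These were led by Dph1 (14.6 and 11.8), Dph3 (13.8 and 8.32) and Dph5 (12.6 and 5.55), and only the Dph5 region was nearest to the listed gene. Mitochondrial translation factors had 3 of 12: Mtrf1 (33.0 and 19.8, nearest to Kbtbd7), Guf1 (27.8 and 15.9) and Mtres1 (13.2 and 9.05). Start codon helicases and repressors had 2 of 11, at Pdcd4 (14.1 and 4.01, nearest to Bbip1) and Dhx29 (5.04 and 4.15). Release and recycling had 1 of 6, at Hbs1l (11.5 and 6.78), and the list of internal ribosome entry and selenoprotein elongation had 1 of 3, at Ptbp1 (14.3 and 13.7).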

How the data were processed

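The files used were 4 narrowPeak lists on mm10 (GRCm38), 1 per heart, each from an RXR immunoprecipitate and its input. Per the submitters' processing notes, cutadapt, BWA, SAMtools and MACS3 were used, with neither versions nor settings stated. The deposited fold enrichment is a ratio, the deposited −log10 p and −log10 q values rank a peak within its list, and the deposited score is the −log10 q times a constant. The deposited positions are in bp and are printed 1-based.

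Fold enrichment and −log10 p were solved together (Poisson upper tail, pseudocount of 1) for the whole number of fragments at each summit and the local background. In every list 100% of the peaks fitted within 0.01. A factor of 0.967 was put on the immunoprecipitate of WT replicate 4 and of 0.992 on that of edKO replicate 3. Counting intervals cover the fragments at the summit only, at the 95% level, and duplicates may remain.

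Peaks of the WT hearts overlapping by at least 1 bp were shared, with 1 peak per heart and the summit of WT replicate 3. Genes, starts and promoters came from RefSeq tables of GRCm38.p6. Exons were not used here. The naming rule took all members with a shared region or an edKO peak, the 5 strongest with a peak of WT replicate 3 only, members without a peak by complex and up to 3 genes per related list. The remaining members with a peak of WT replicate 3 only were added, after their values were seen, to account for every member. The only test was the exact permutation test over hearts, and the hearts were treated as unpaired, since the labels do not tie a number to a litter or day. Members and lists were chosen with earlier results of these data known. The scripts were tested on simulated data. Python 3.11.15, scipy 1.17.1 and pandas 2.3.3 were used.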

Additional observations from a re-analysis of the deposited data

How the results depend on the processing

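With hearts of the same number as a pair (replicate block), the WT minus edKO difference was again 47.5 peaks, with an exact sign-flip permutation p = 0.5, the smallest that 2 pairs allow. Leaving out 1 heart gave differences of 18.5 to 76.5, and the other settings 16.0 to 109.0. At a reach of 50 kb, 27 members (38.0%, against 31.9% of all genes) and 45 genes of the related lists had a shared region. At 1 kb the edKO peak at Eef2 fell out, leaving 0 members with an edKO peak. Shared regions within 1 kb of a gene end fell from 11 to 7 with a −log10 p of at least 10 in every list and to 7 with as many peaks of WT replicate 3 as WT replicate 4 has. In those settings 9 members had a shared region (12.7%), against 11.1% and 10.6% of all genes. Leaving out 1 heart, with all peaks of the remaining WT heart in place of shared regions, gave 13 to 44 members, 28 to 54 related genes, 11 to 49 regions within 1 kb, a median fold enrichment of 5.74 to 7.81 and 0 to 1 members with an edKO peak. The high counts came without WT replicate 4. Without WT replicate 3 the median was 5.84, over 13 members, and without WT replicate 4 it was 5.74, over 44 members. These medians cover different sets of genes and do not compare the hearts. For the 13 members with a shared region, the median was 8.61 from WT replicate 3 peaks, against 5.84 from WT replicate 4. The count of 0 members with an edKO peak came without edKO replicate 4.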

Other observations

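The letters CACGTG, the E-box recognised by factors such as MYC and the clock proteins, stood in the printed windows of both strong members, beginning 54 bases before the start in Eif4g1 and 43 bases before it in Eef2. The strong Eef2 region, with its summit 1466 bp before the start, lay outside the printed Eef2 window, which held only a weaker summit of WT replicate 3. The motif CACGTG was chosen after those sequences had been seen. It reads the same on both strands. It was found at 14 of the 55 members with a promoter entry (25.5%), against 7.61% of 17492 protein-coding genes. The 14 were Eef1akmt4, Eef1akmt4-ece2, Eef1aknmt, Eef2, Eef2k, Eif1b, Eif3f, Eif3k, Eif4a1, Eif4e, Eif4g1, Eif4h, Eif5a and Eif5a2, of which Eef1akmt4 and Eef1akmt4-ece2 share 1 promoter. A peak of WT replicate 3 lay near 10 of the 14 and near 36 of all 55, and a shared region lay near 3 of the 14 and near 11 of all 55. Member windows also had more CpG dinucleotides than others, with a median of 18 against 10, and a higher GC content, with a median of 60.8% against 55.6%. The part of base composition in the motif count was not tested.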
